A study of Mus musculus with 16 samples.

Results

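RNA polymerase II (Pol II) and H2B with a single ubiquitin (H2Bub1) were set side by side along the genes of mouse embryonic fibroblasts (MEFs) that lack Atxn7l3. The data are 2 of the 16 samples of the study, 1 chromatin immunoprecipitation and sequencing (ChIP-seq) library made with an antibody against H2Bub1 and 1 made with an antibody against the Pol II subunit RPB1. Members were taken by their labels, and 8 of the 16 samples came with a peak list. Both marks were read on 21938 protein-coding genes of the GENCODE M21 annotation. For each gene the fold enrichment of the strongest Pol II peak within 1000 bp of the transcription start site (TSS) was taken as Pol II strength (Pol II fold), and the percentages of the gene body inside H2Bub1 peaks (H2Bub1 share) and inside Pol II peaks (Pol II share) were computed.

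The MEFs were homozygous for the null allele (Atxn7l3-/-, KO) on a DBA/2 x C57BL/6 background and came from E10.5 embryos whose head and gastrointestinal tract had been removed. Each dissociated embryo was cultured in a well of its own, and the study's methods do not say how many embryos went into a library. The study describes round cells among the elongated ones in KO MEF cultures, so the cells were not of one shape. Wild-type (WT) MEFs of the same strain and age, and KO mouse embryonic stem cells (mESCs) grown with LIF and kinase inhibitors, were used for comparison. There was 1 library per group, so no p-value is given and differences rest on single libraries. Intervals are exact 95% intervals over genes or peaks and cover counting error only. The read depth behind the lists is unknown.

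H2Bub1 is placed on nucleosomes by the RNF20 and RNF40 ubiquitin ligase, which travels with the PAF complex on elongating Pol II, and it is best known as a mark of transcribed gene bodies. It is removed by the ubiquitin proteases USP22, USP27X and USP51, which need the adaptor proteins ATXN7L3 and ENY2 for activity on H2B. Pol II itself gathers just past the TSS, where it pauses, and again past the end of genes, where transcription terminates.

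In KO MEFs the Pol II list held 32232 peaks over 32.4 Mb, with a median width of 666 bp and a median fold of 4.18 over the local background. The H2Bub1 list held 28856 peaks over 223 Mb, with a median width of 2766 bp and a median fold of 2.32. At the targeted gene the Pol II promoter fold was 23.4 in KO MEFs and 20.9 in WT MEFs. The loxP sites of the targeting construct flank exons 2 to 12 of the 13 exons of Atxn7l3, a stretch of 3162 bp (chr11:102291898-102295059, minus strand). In KO MEFs 10.9% of this stretch lay in Pol II peaks and 19.6% in H2Bub1 peaks, against 19.3% and 21.6% in WT MEFs. The called bases in KO MEFs, 344 bp of Pol II and 621 bp of H2Bub1, lay at the ends of the stretch, at most 344 and 528 bp inside it. In KO mESCs 377 and 412 bp were called, at most 377 and 401 bp inside. These bases do not show the loss of the whole stretch, and its middle held no peak in WT MEFs either, so the lists cannot check the deletion there. The extent of the null allele was not determined here, and genotypes are given as labelled. The last exon, outside the flanked stretch, was 92.4% inside Pol II and 100% inside H2Bub1 in KO MEFs.

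The labelled cell type was checked against marker genes. All 7 fibroblast markers carried both marks in KO MEFs, among them Col1a1 with a Pol II fold of 23.9 and an H2Bub1 share of 54.0%, and Pdgfra with 10.8 and 40.9%. At all 7 the Pol II fold was lower in KO than in WT MEFs, with 23.9 against 38.3 at Col1a1, 19.4 against 43.3 at Col1a2, 10.8 against 12.7 at Pdgfra, 8.80 against 21.9 at Pdgfrb, 7.11 against 13.4 at Thy1 and 5.84 against 18.5 at Prrx1, and with the same order at Twist2. The median ratio of KO to WT fold was 0.513 at these 7 genes and 0.853 at the 10892 genes with promoter Pol II in both, of which 67.7% were lower in KO MEFs. The Pol II share was lower in KO MEFs at Thy1 (9.06% against 94.5%), Prrx1 (2.61% against 86.6%), Pdgfrb (10.1% against 70.3%), Col1a2 (76.7% against 97.9%) and Twist2 (1.10% against 2.73%), equal at Col1a1 (100%) and higher at Pdgfra (46.1% against 15.8%). None of the 3 pluripotency, 4 neural and 2 muscle markers had promoter Pol II or H2Bub1, and of these only Elavl3, which overlaps another gene, had Pol II in its body (0.28 kb). Of 9 mesothelial and simple epithelial markers, 4 had both marks, near the 47.7% of all genes, namely Upk1b (fold 38.6, share 58.3%), Upk3b (18.1, 100%), Wt1 (11.6, 79.1%) and Msln (10.2, 92.1%), while the defining epithelial genes Krt8, Krt18, Krt19, Cdh1 and Epcam had no promoter Pol II and no H2Bub1. Of these 5 genes Krt19 had Pol II in its body (0.801 kb, none in WT MEFs). The epithelial keratin gene Krt7, not on this list, had a fold of 11.3 and a Pol II share of 77.1%, and no Pol II in WT MEFs. In WT MEFs none of these 9 genes had promoter Pol II. Of 3 endothelial markers only Pecam1 had a Pol II promoter peak (fold 4.31) and none had H2Bub1. Of 2 blood markers Ptprc had H2Bub1 over 11.5% of its body, without Pol II at its promoter. In a bulk library a mark in few cells and a weak mark in all cells cannot be told apart, and the part of other cell types in the results was not tested.

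To see how far the marks went together, genes were first counted. A Pol II promoter peak was found at 11213 of 21938 genes (51.1%), and H2Bub1 covered at least 1 bp of the body of 11631 genes (53%). Both marks were present at 10462 genes, Pol II without H2Bub1 at 751, H2Bub1 without promoter Pol II at 1169 and neither at 9556. H2Bub1 was thus found at 93.3% of genes with Pol II at the promoter (interval 92.8 to 93.8%) and at 10.9% of genes without it (10.3 to 11.5%), so these intervals lie far apart. Without Pol II the share was 5.16% when Pol II at any annotated start was counted, and 6.22% at genes 5000 bp or more from another. Coverage was seldom complete. Of the genes with Pol II, 49.9% had H2Bub1 over at least 50% of the body, 17.5% over at least 90% and 9.36% over less than 10%. Close neighbours can share a peak, and 2646 of the 11213 genes (23.6%) had the same strongest Pol II peak as another gene.

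The genes that the study displayed span this range. Klhl11 (chr11:100462614-100472741) had a Pol II fold of 20.8 and was 100% inside H2Bub1, as 1 peak over its 10.1 kb. Its neighbour Acly (chr11:100476353-100528000), which encodes ATP citrate lyase, had a similar Pol II fold of 17.4 but an H2Bub1 share of 9.03%, all within 4.66 kb near its start. In KO mESCs the share of Acly was 70.1%. Cmip (fold 13.4) was 81.3% covered over a body of 202 kb. Bud13 and Zpr1, which lie 364 bp apart, had shares of 36.8% and 49.2%, with a fold of 17.7 at Bud13 and a lower one at Zpr1. Pgk1, a glycolytic kinase, had the lowest Pol II fold of the set at 8.70 and a share of 61.0%. Within these genes the stronger Pol II promoter did not always have the larger H2Bub1 share.

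Across all genes with Pol II, H2Bub1 went up with Pol II strength. The 11213 genes were ranked by Pol II fold and split into quintiles, from the weakest (median fold 4.82) to the strongest (median fold 21.3). The median H2Bub1 share was 15.1% in the weakest quintile (interval 13.5 to 16.8%), 42.7% in the second (40.3 to 45.0%), 55.1% in the third (52.8 to 57.1%), 60.2% in the fourth (58.4 to 61.8%) and 71.3% in the strongest (69.0 to 73.3%). No interval of a quintile reached that of its neighbour, and the largest step was between the weakest and the second. When peaks were kept only from a -log10 q of 3 upward, the median of the weakest quintile was 5.92%. Genes with any H2Bub1 made up 75.6% of the weakest quintile, 95.6% of the second and 99.2% of the strongest. The H2Bub1 fold over the covered bases followed the same order, with medians of 2.66, 3.17, 3.57, 3.77 and 4.10. Across genes, Spearman's rank correlation between Pol II fold and H2Bub1 share was 0.417 (11213 genes) and between Pol II fold and H2Bub1 fold 0.443 (10462 genes). Genes are not independent replicates, and their values share the same 2 libraries.

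**Figure D1:**
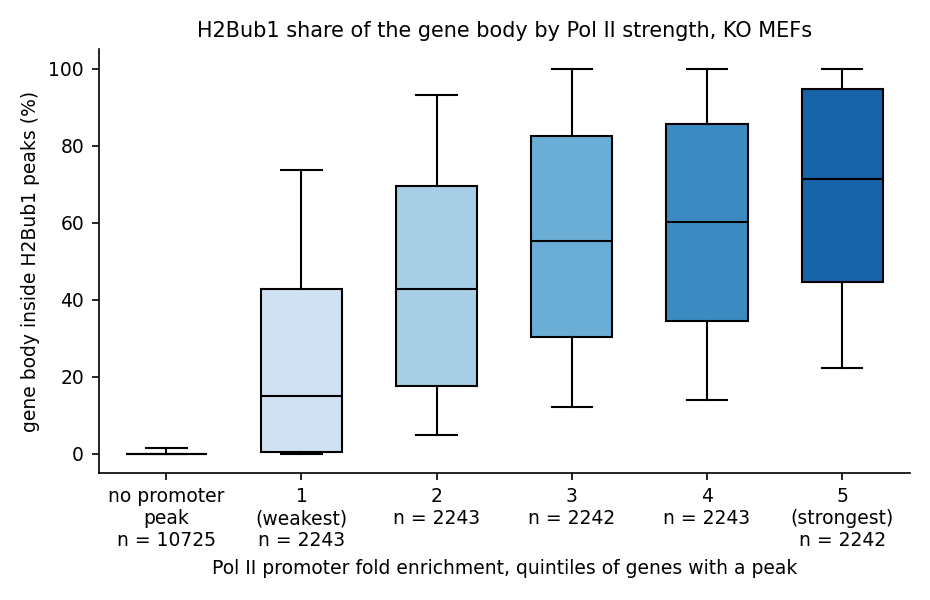
H2Bub1 share of the gene body (percent, vertical axis) in KO MEFs for genes without a Pol II promoter peak and for the quintiles of Pol II promoter fold (horizontal axis). Boxes run from the lower to the upper quartile with the median as a line and whiskers from the 10th to the 90th percentile of genes; the medians go from 15.1% in the weakest to 71.3% in the strongest quintile.

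The genes at the top of the Pol II ranking differed widely in H2Bub1. Gtf3c6 (chr10:40247703-40258108), a subunit of the Pol III factor TFIIIC, had the highest fold, 55.0, and an H2Bub1 share of 30.4%. Its summit lay at -557 bp from the TSS, inside the snoRNA gene Rnu3a. Rplp0 (chr5:115559467-115563727), a protein of the ribosomal stalk, followed with a fold of 51.2 and 100% H2Bub1. Parp16, an ADP-ribosyltransferase of the endoplasmic reticulum, had a fold of 50.1 and no H2Bub1, but a snRNA gene lay within 1000 bp of its summit, so the peak may not belong to Parp16. Fasn, the fatty acid synthase, had 47.3 and 38.7%, and Fam53c 47.1 and 96.0%. Of these 5 genes, then, only Rplp0 and Fam53c had H2Bub1 over most of the body. Next in fold among the genes with a share of at least 50% and a body of at least 2 kb were Oxsm (46.5, 80.3%), a fatty acid synthesis enzyme of mitochondria, Ctsl (46.2, 55.3%), a lysosomal protease, and Eif1 (44.4, 100%), a translation initiation factor.

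The promoter of Rplp0 is shown as that of a gene with strong Pol II and full H2Bub1 (RefSeq start, GRCm38.p6, chr5:115559217-115559516, plus strand, with each CG dinucleotide in capitals).
Rplp0: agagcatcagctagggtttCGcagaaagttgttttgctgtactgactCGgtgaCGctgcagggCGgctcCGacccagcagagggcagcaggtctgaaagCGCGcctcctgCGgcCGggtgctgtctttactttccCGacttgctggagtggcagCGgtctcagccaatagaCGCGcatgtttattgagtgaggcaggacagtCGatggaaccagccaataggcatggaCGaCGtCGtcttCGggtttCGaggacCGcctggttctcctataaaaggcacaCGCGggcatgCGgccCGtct
It held 24 CG dinucleotides in 300 bases at 59.0% GC and the letters TATAAA, which begin 17 bp past the annotated start and not upstream of it.

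Gene length was then considered, since a peak of a given width covers more of a short gene. The median H2Bub1 share was 98.8% for genes under 2 kb, 94.5% for 2 to 5 kb, 67.0% for 5 to 10 kb, 51.7% for 10 to 20 kb, 42.7% for 20 to 50 kb, 42.6% for 50 to 100 kb, 35.8% for 100 to 200 kb and 15.3% over 200 kb. Covered length went the other way, from a median of 0.96 kb under 2 kb to 46.3 kb at 100 to 200 kb and 46.2 kb over 200 kb. The rank correlation with gene length was -0.33 for the share and 0.631 for covered bases and -0.0024 for Pol II fold. The median Pol II fold lay between 10.9 and 12.4 in the classes up to 200 kb and was 9.46 over 200 kb. Within each length class the share still went with Pol II fold, with a rank correlation between 0.403 (20 to 50 kb) and 0.554 (2 to 5 kb). At 20 to 50 kb, the class with most genes (3139), the median share was 15.3% in the weakest quintile and 64.0% in the strongest. Over 200 kb the order broke at the top, with 39.7% in the fourth quintile (interval 31.3 to 47.9%, 84 genes) and 32.0% in the strongest (18.9 to 47.3%, 50 genes), and these intervals overlap. From a -log10 q of 3 upward the median over 200 kb was 7.64%.

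The genes with the strongest Pol II of their length class differed in share. They were Rplp0 at 2 to 5 kb (100%), Rdm1 at 5 to 10 kb (no H2Bub1), Gtf3c6 at 10 to 20 kb (30.4%) and Parp16 at 20 to 50 kb (no H2Bub1). Jund, an AP-1 subunit of 1.67 kb, had a Pol II fold of 44.4 and lay fully inside both marks. Ngly1 (50 to 100 kb), which removes sugar chains from misfolded proteins, had a fold of 46.5 from a peak that it shares with Oxsm, and a share of 33.4%. Usp24 (100 to 200 kb), a deubiquitylase, had 45.5 and 32.1%. Maml3 (over 200 kb), a Notch coactivator, had 32.8 and 32.3%, and its 135 kb of H2Bub1 were broken into 33 peaks. At the stricter q the shares of Ngly1 and Maml3 were 17.4% and 10.9%. The median share of the strongest quintile in the same length class was 55.9% for Ngly1 and 53.4% for Usp24, which were below it, and 32.0% for Maml3, which was near it.

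**Figure D2:**
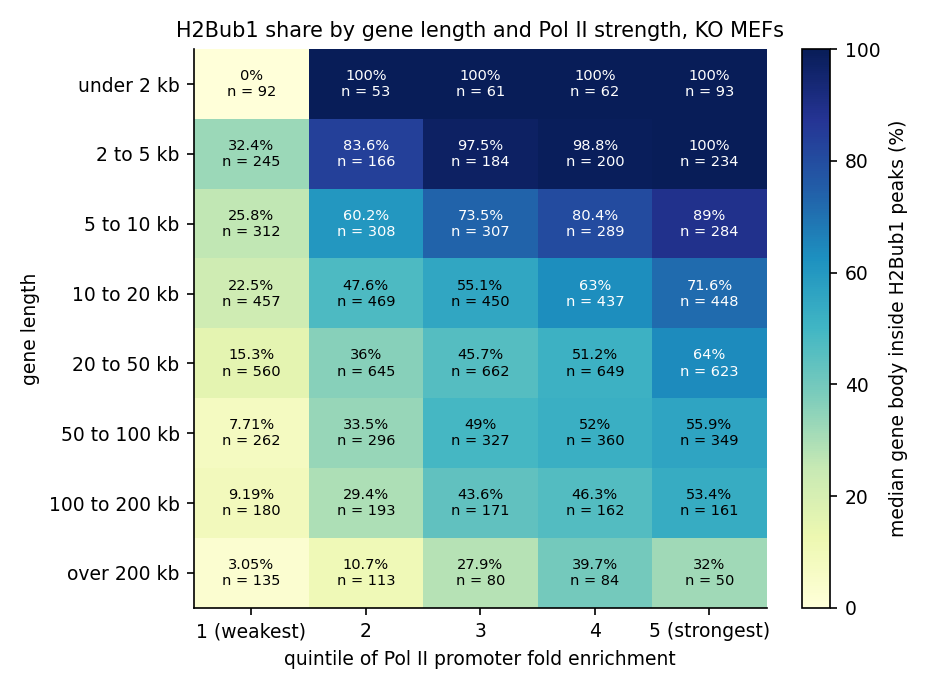
Median H2Bub1 share (percent, colour and number in each cell) of genes in KO MEFs by gene length class (vertical axis) and quintile of Pol II promoter fold (horizontal axis), with the number of genes. At 20 to 50 kb the medians go from 15.3% to 64.0%, and over 200 kb the strongest quintile (32.0%) lies below the fourth (39.7%).

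Where the marks lay along the gene was read on 2347 genes with promoter Pol II that were at least 10 kb long and at least 10 kb from another protein-coding gene. Pol II was most frequent 200 bp past the TSS, where 93.9% of genes lay in a peak, and H2Bub1 1300 bp past it, with 91.4%. At the TSS itself 91.6% of genes were inside Pol II but 60.8% inside H2Bub1, and 1000 bp upstream 11.4% and 17.1%. Further in the gene the marks parted. At 2 kb, 13.5% of genes were inside Pol II and 88.2% inside H2Bub1, and at 10 kb 2.6% and 62.6%. Around the gene end H2Bub1 became rarer and Pol II more frequent. H2Bub1 was present at 30.5% of genes 10 kb before the end, at 20.2% 5 kb before it, at 7.93% at the end and at 4.09% 2 kb past it. Pol II was present at 3.71% 10 kb before the end, at 2.77% at the end and at 10.1% 2250 bp past it, its highest value there. It was more frequent than H2Bub1 from 750 bp past the end onward (7.41% and 6.69%).

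Pol II strength went with both edges of the H2Bub1 domain. At the TSS 20.8% of the weakest quintile and 88.5% of the strongest were inside H2Bub1. For Pol II peaks the values were 80.9% and 96.0%, but the genes had been chosen for a Pol II peak near the TSS. The peak that covered the position 500 bp past the TSS began at a median of 78.5 bp past the TSS in the weakest quintile (interval 55 to 102) and at -546 bp, upstream of it, in the strongest (-674 to -418). It ended 4.97 kb past the TSS in the weakest quintile (4.24 to 5.94) and 20.6 kb in the strongest (18 to 22.5). Of the 2347 isolated genes 2107 had such a peak, and over these the median start was at -89 bp and the median end 13.5 kb downstream. The domain began after the TSS in 32.4% of the 2107 genes, in 70.3% of the 360 in the weakest quintile and in 9.07% of the 441 in the strongest. Past the gene end, 22.2% of the strongest quintile lay inside Pol II at 3 kb, with 5.95% inside H2Bub1.

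**Figure D3:**
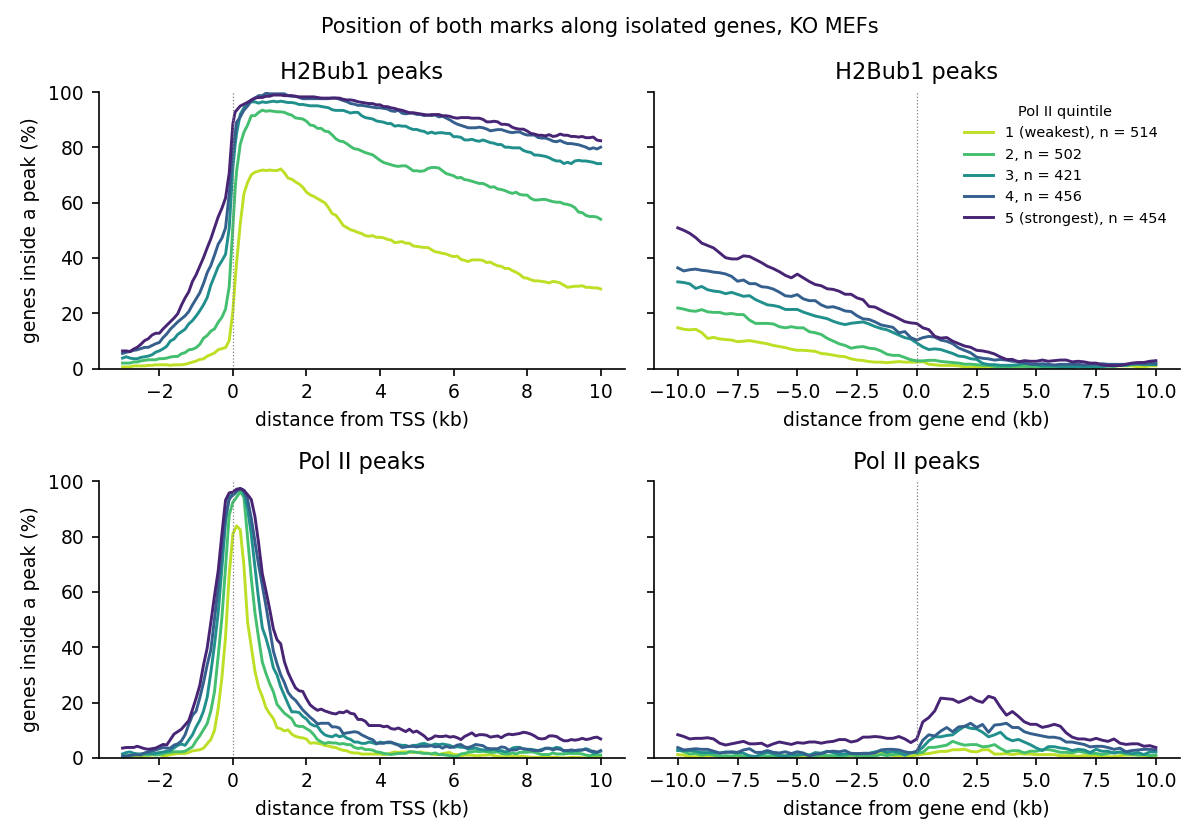
Share of 2347 isolated genes (percent, vertical axes) inside an H2Bub1 peak (top) or a Pol II peak (bottom) by distance in kb from the TSS (left) and the gene end (right) in KO MEFs, 1 line for each quintile of Pol II promoter fold. At 10 kb past the TSS 82.4% of the strongest quintile is inside an H2Bub1 peak, while Pol II is narrow at the TSS and returns past the gene end.

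The summit of the strongest Pol II peak that reached the promoter window was inside H2Bub1 for 80.2% of genes. Its median distance from the TSS was 93 bp in the weakest and 86 bp in the strongest quintile. In a wide peak it can lie outside the window, as at Thbs1 (17264 bp). This share was 42.7% in the weakest quintile, 79.4% in the second, 88.1% in the third, 94.2% in the fourth and 96.7% in the strongest. Of all Pol II peaks, 10154 had their summit at a promoter, and 77.8% of these summits lay in H2Bub1. The peaks inside had a median fold of 12.4 and those outside 5.4. In gene bodies 68.1% of 14975 summits were inside H2Bub1, with medians of 3.61 inside and 3.53 outside. Between genes 18.4% of 7103 summits were inside. Promoter peaks inside and outside H2Bub1 thus differed in fold, while peaks of gene bodies hardly did.

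Seen from H2Bub1, 11160 of 28856 peaks (38.7%) held a Pol II peak. These had a median width of 8551 bp and a fold of 3.43 and made up 74.9% of the covered bases, whereas the 17696 without Pol II had 1528 bp and 2.18. H2Bub1 covered 36.5% of the body bases of genes with promoter Pol II and 3.69% of those of other genes. Pol II covered 3.65% of the former. Of Pol II bases in gene bodies 78.1% lay inside H2Bub1, and of H2Bub1 bases 8.04% lay inside Pol II. Pol II peaks in gene bodies were therefore mostly nested in far wider H2Bub1 domains.

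Long genes whose body was filled with Pol II were rare and mostly carried wide H2Bub1. Among genes longer than 20 kb the median H2Bub1 share was 26.5% where up to 2% of the body was inside Pol II (3099 genes), 49.4% at 2 to 5% (1747 genes), 64.8% at 10 to 20% (313 genes) and 80.7% above 40% (71 genes). All of these 71 genes had H2Bub1, 62 of them over at least 50% of the body and 25 over at least 90%. Only 3 were below 25%, and in 17 the Pol II share was above the H2Bub1 share. The rank correlation between Pol II share and H2Bub1 share was 0.523 over all genes with promoter Pol II.

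The 5 genes with most Pol II bases were all at least 100 kb long. The basement membrane collagens Col4a1 (105 kb of Pol II, H2Bub1 share 58.5%) and Col4a2 (88.8 kb, 65.2%) are read outward from 1 shared promoter on chr8. Cald1, the actin-binding caldesmon (79.0 kb), was 90.2% inside H2Bub1 and Mical2, an oxidase that takes actin filaments apart (78.5 kb), 50.1%. Cemip, which breaks down hyaluronan (chr7:83932857-84086502), stood apart with 80.5 kb of Pol II, a Pol II share of 52.4% and an H2Bub1 share of 6.37%. Its 4 H2Bub1 peaks had a fold of 2.00, and at a -log10 q of at least 3 none of them was left. After the values were seen, the lowest and highest H2Bub1 shares among the 71 genes were also picked out. The lowest after Cemip were Col1a2 (18.8% against a Pol II share of 76.7%), Fn1 (23.6% against 87.4%), Btg3 (33.6% against 42.3%) and Flna (39.7% against 90.7%). At the stricter q the share of Fn1 was 11.5%. Col1a2 and Fn1 encode matrix proteins, and Flna crosslinks actin. Genes at 100% H2Bub1 were H6pd, Fosl2, Gata6, Smad7 and Bcar1, with Pol II shares from 44.5% to 93.1%. Long stretches of Pol II were thus found both with full and with little H2Bub1.

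Few genes with strong Pol II had no H2Bub1 at all. In the strongest quintile they were 19 of 2242. Parp16 (chr9:65195353-65239224, fold 50.1) and Rdm1 (chr11:101627195-101636100, fold 40.4) came first, followed by Stkld1 (32.3), the histone gene Hist1h3e (30.6) and Ssmem1 (26.3). Stkld1 and Ssmem1 lie 66 and 65 bp from a neighbouring gene, so their promoter peak cannot be assigned to 1 gene. In WT MEFs all 5 genes had Pol II (folds from 23.2 to 47.8) and no H2Bub1 as well. In KO mESCs, where all 5 also had Pol II, H2Bub1 covered 50.6% of Rdm1 (fold 18.2), 23.5% of Parp16 (16.0) and 4.58% of Stkld1 (5.80), and none of the other two. Among bodies of at least 20 kb the next were Acer2, a ceramidase (25.2), Zcwpw1 (23.5), Caprin2 (22.3) and Dgat2, which makes triglycerides (19.6). Zcwpw1 overlaps another gene and had no Pol II in its own body. The other 3 are over 10 kb from the next gene, with Pol II over 0.707% to 1.26% of the body.

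The 19 genes were counted by class after their values were seen. Replication-dependent histones made up 8 of the 19 (42.1%), against 23 of the 2223 genes of the strongest quintile with H2Bub1 (1.03%). A snRNA or snoRNA gene lay within 1000 bp of the Pol II summit at 2 of the 19, against 34 of 2223 (1.53%). These 2 were Parp16 and Rdm1, so their promoter peaks cannot be assigned to 1 gene either. The summit of Rdm1 lay 224 bp past the 3' end of the snRNA gene Gm23849, which lies in an intron of Rdm1. Such snRNAs have many near-identical copies in the genome, and the effect of this on the placement of reads was not tested. RefSeq places the start of Parp16 19337 bp downstream of the GENCODE start. Gm23849 is shown with its flanks, since strong Pol II without H2Bub1 lay next to it (GRCm38.p6, snRNA in capitals, 5' to 3' on the strand of the snRNA). The window is chr11:101627306-101627605 on the plus strand.
Gm23849: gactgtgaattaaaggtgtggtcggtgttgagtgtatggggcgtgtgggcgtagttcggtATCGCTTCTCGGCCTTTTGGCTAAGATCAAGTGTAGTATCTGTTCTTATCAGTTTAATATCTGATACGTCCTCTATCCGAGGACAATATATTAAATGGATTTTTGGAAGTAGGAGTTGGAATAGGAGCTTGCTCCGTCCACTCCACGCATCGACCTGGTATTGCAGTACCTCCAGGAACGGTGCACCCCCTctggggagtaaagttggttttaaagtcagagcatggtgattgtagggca

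For the histone gene the promoter is given (chosen after values were seen, RefSeq start, chr13:23562336-23562635, minus strand, with CG in capitals).
Hist1h3e: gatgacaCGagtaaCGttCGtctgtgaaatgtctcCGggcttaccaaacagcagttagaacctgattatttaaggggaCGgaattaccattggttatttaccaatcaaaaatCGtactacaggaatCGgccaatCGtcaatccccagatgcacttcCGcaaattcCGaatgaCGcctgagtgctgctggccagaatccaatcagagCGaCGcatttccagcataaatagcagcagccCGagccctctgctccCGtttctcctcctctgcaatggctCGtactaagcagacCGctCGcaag
It held 18 CG dinucleotides at 49.7% GC, and its gene of 0.836 kb had Pol II over 53.3% of its length.

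H2Bub1 without promoter Pol II was found at 1169 genes, and most of these had Pol II elsewhere. Of these genes, 655 (56.0%) had Pol II within 1000 bp of another annotated start of the same gene, 880 (75.3%) had a Pol II peak in the body, and 482 (41.2%) overlapped another protein-coding gene. The same counts were not made for genes with neither mark, so whether these shares are particular to genes with H2Bub1 was not tested. Pol II was absent from every start and from the body at 289 genes (24.7%). H2Bub1 was lower there, with a median share of 11.5% (interval 8.22 to 15.5%) and a fold of 2.25, against 21.5% and 2.85 over all 1169 genes and 53.6% and 3.49 over genes with both marks. Of the 289 genes, 119 were at least 5000 bp from another protein-coding gene.

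Among these 119 genes the 5 with the most H2Bub1 bases were the endocytic adaptor gene Sh3kbp1 (chrX:159627272-159978069, 55.7 kb, 15.9% of the body), the microtubule-regulating kinase gene Mark1 (chr1:184896789-184999570, 39.0 kb, 38.0%), Tnfrsf11a, which encodes the receptor RANK (22.3 kb, 33.2%), Parvb, a focal adhesion protein (21 kb, 25.1%) and the interferon-induced Samd9l (20.9 kb, 76.4%). In each of them the first H2Bub1 base was within 0.2 kb of the TSS. In WT MEFs Sh3kbp1, Mark1 and Samd9l had promoter Pol II with folds of 5.51, 8.21 and 5.4, and Tnfrsf11a and Parvb had none. The H2Bub1 fold was 2.13 to 2.42 at the first 4 and 3.42 at Samd9l, against a median of 3.49 over genes with both marks. At a -log10 q of at least 3 the share was 0 at Sh3kbp1 and Tnfrsf11a, 2.25% at Parvb, 15.3% at Mark1 and 49.9% at Samd9l.

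The promoters of the first 2 of these genes are shown for their sequence in the absence of a Pol II peak (RefSeq starts, GRCm38.p6, CG in capitals). That of Sh3kbp1 is chrX:159627022-159627321 on the plus strand and that of Mark1 chr1:184999500-184999799 on the minus strand.
Sh3kbp1: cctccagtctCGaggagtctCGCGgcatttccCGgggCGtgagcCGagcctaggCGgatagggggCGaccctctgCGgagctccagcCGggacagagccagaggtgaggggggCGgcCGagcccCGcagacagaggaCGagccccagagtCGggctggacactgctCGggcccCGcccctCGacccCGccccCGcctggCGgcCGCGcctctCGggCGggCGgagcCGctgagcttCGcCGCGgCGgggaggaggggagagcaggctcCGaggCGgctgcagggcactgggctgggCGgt
Mark1: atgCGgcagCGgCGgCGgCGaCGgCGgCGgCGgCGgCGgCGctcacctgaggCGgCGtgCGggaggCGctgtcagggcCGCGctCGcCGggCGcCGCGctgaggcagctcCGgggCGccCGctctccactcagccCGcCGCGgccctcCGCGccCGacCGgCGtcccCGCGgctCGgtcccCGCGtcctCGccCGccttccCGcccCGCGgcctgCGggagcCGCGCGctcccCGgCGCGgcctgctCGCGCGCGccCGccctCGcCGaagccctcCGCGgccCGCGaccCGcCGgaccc
They held 34 and 64 CG dinucleotides in 300 bases, at 76.3% and 85.7% GC, and no TATAAA, against 24 and 59.0% at Rplp0.

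Promoter sequence was described in the same way for all genes, from 250 bp before to 50 bp after the GENCODE TSS. The median ratio of observed to expected CG was 0.776 at genes with both marks (interval 0.770 to 0.781), 0.556 with Pol II alone (0.535 to 0.593), 0.284 with H2Bub1 alone (0.267 to 0.296) and 0.220 with neither (0.215 to 0.227). It was 0.637 in the weakest and 0.830 in the strongest Pol II quintile. The rank correlation with this ratio was 0.262 for Pol II fold and 0.146 for H2Bub1 share (11209 genes). The letters TATAAA, on either strand, were in 12.7% of all promoters, in 6.49% of those with both marks and in 55.2% of those of histone genes (42.6 to 67.4%).

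Gene classes were compared by their members with promoter Pol II and by the median over these members, beside a median Pol II fold of 11.5 and a median H2Bub1 share of 49.9% over all genes with Pol II. Over all genes with Pol II, 93.3% had H2Bub1. Because the share went with length and Pol II strength, the median share of all genes of the same length class and quintile (matched median) is also given. Of all 11213 genes with Pol II, 5339 lay above and 5466 below their matched median.

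Genes that encode parts of the translation, splicing and respiration machinery were short and widely covered. Of 79 cytosolic ribosomal protein genes, 77 had promoter Pol II and all 77 had H2Bub1, with a median Pol II fold of 19.9 and a median share of 100% (matched median 100%). Rps20 and Rplp1 had folds of 43.9 and 31.1 and, like Rplp0, lay fully inside H2Bub1. Splicing factor and hnRNP genes had both marks at 57 of 57 with Pol II, a fold of 16.7 and a share of 93.5% (matched 71.6%), with 47 of the 57 above their matched median. Srsf2, Srsf6 and Hnrnpab, with folds of 39.4, 37.3 and 35.5, were all at 100%. Respiratory chain genes had both marks at 85 of 88, a lower fold of 11.0 and a share of 91.0% (matched 72.6%). Proteasome subunits had both at 34 of 34, 11.3 and 80.6% (matched 55.1%), and mitochondrial ribosomal proteins at 76 of 76, 11.3 and 71.2% (matched 73.5%), with 40.1% among those at least 5000 bp from another gene. The median Pol II fold of these 5 classes was above or near that of all genes (11.5).

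Genes of rapid induction and of the cytoskeleton had the highest median Pol II fold of the classes. The 24 immediate early genes with Pol II, which cells switch on within minutes of stimulation, had a fold of 21.2 and a share of 100% (matched 89.0%), among them Jund, Zfp36 (38.2) and Fos (30.7), each at 100%. The 18 actin cytoskeleton genes had a fold of 24.7 and a share of 79.1% (matched 63.5%), with Actb (38.5) and Actg1 (34.4) fully covered. Glycolysis genes had both marks at 14 of 15 entries, with 9.96 and 66.1% (matched 47.6%). Aldoa is annotated under 2 gene IDs, and with the one of higher fold alone both marks were at 13 of 14, with 11.3 and 71.8%. Slc2a1, the glucose transporter, had a fold of 29.3 and a share of 80.7%.

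Collagen, histone and DNA replication genes had a median H2Bub1 share below their matched median. Of 17 collagen genes with Pol II, 14 had H2Bub1, with a fold of 13.3, a median length of 114 kb and a share of 12.3% (matched 46.3%), and 15 of the 17 were below their matched median. Col1a1, which lay fully inside Pol II, had a share of 54.0%. Of 20 other matrix genes with Pol II, 18 had H2Bub1, with a share of 46.7% (matched 53.5%). Thbs1, fully inside Pol II, had 54.0% and Loxl1, which crosslinks collagen, 80.7%. The 28 DNA replication genes all had both marks but a share of 21.7% (matched 45.7%), and 21 of the 28 were below. Mcm4, a subunit of the replicative helicase, had a fold of 21.4 and a share of 12.6%, but its summit lay at -520 bp from the TSS and another gene 465 bp away, so the peak cannot be assigned to 1 gene. Among replication genes at least 5000 bp from another gene the median share was 22.2%. Of 59 replication-dependent histone genes with Pol II, 33 had H2Bub1 and 26 did not, while the fold was 17.7 and 31 of them were in the strongest quintile. Their share was 17.6% (matched 100%), and 42 of the 59 were below. Against a matched median of 100% a gene can only tie or fall below. The histone genes were also shorter than their length class, with a median of 0.539 kb against 1.35 kb for genes under 2 kb with Pol II. Hist1h1b and Hist1h3i, which share a promoter peak of fold 28.6, were fully inside 1 weak H2Bub1 peak (fold 2.26).

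Genes of the H2B ubiquitin pathway were themselves read. The 13 ligase, PAF and FACT genes all had both marks, with a fold of 15.3 and a share of 41.7% (matched 53.4%), led by Wac (22.5, 83.1%), a partner of the ligase. Of the 8 genes of the H2B deubiquitylase modules, 7 had both marks, with a share of 63.6% (matched 71.6%). The proteases Usp22 and Usp27x had folds of 5.76 and 12.3 and shares of 46.7% and 55.1%, and Usp51 had neither mark. The adaptor Eny2 had 19.0 and 68.2%, Atxn7 11.7 and 55.0%, Atxn7l1 11.5 and 80.1%, and Atxn7l2 20.5 and 63.6%. The 18 genes of Pol II pausing and elongation all had both marks, with 13.6 and 71.7% (matched 55.9%). Among them were Polr2a (41.7, 49.6%), which encodes RPB1, and the P-TEFb inhibitor Hexim1 (25.6, 100%).

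Developmental families went several ways. Zfp-named zinc finger genes had both marks at 300 of 309, with 10.8 and 54.2% (matched 51.2%). Of 39 Hox genes 20 had Pol II, near the 51.1% of all genes, and 19 of these had H2Bub1, with a low fold of 5.72 but a share of 90.4% (matched 32.4%), and 16 of the 20 were above. Hox genes lie close together, so 1 H2Bub1 peak can cover several of them, and among those at least 5000 bp from another gene the median was 21%. These distant genes are only a part of the 20, without Hoxb4 and Hoxb2. Hoxb4 and Hoxb2, with folds of 17.0 and 15.7, were at 100%. Of 69 protocadherin genes 9 had Pol II at the annotated start (51.1% of all genes) and 29 had H2Bub1 (53% of all genes), of which 23 were without Pol II there. Many of these genes are nested variants of 1 cluster. Of 49 keratin genes 2 had Pol II, Krt7 (11.3, 33.1%) and Krt80 (3.02, no H2Bub1). Of 1093 olfactory receptor genes, which fibroblasts do not use, 4 had Pol II and 1 had H2Bub1, and none had both.

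**Figure D4:**
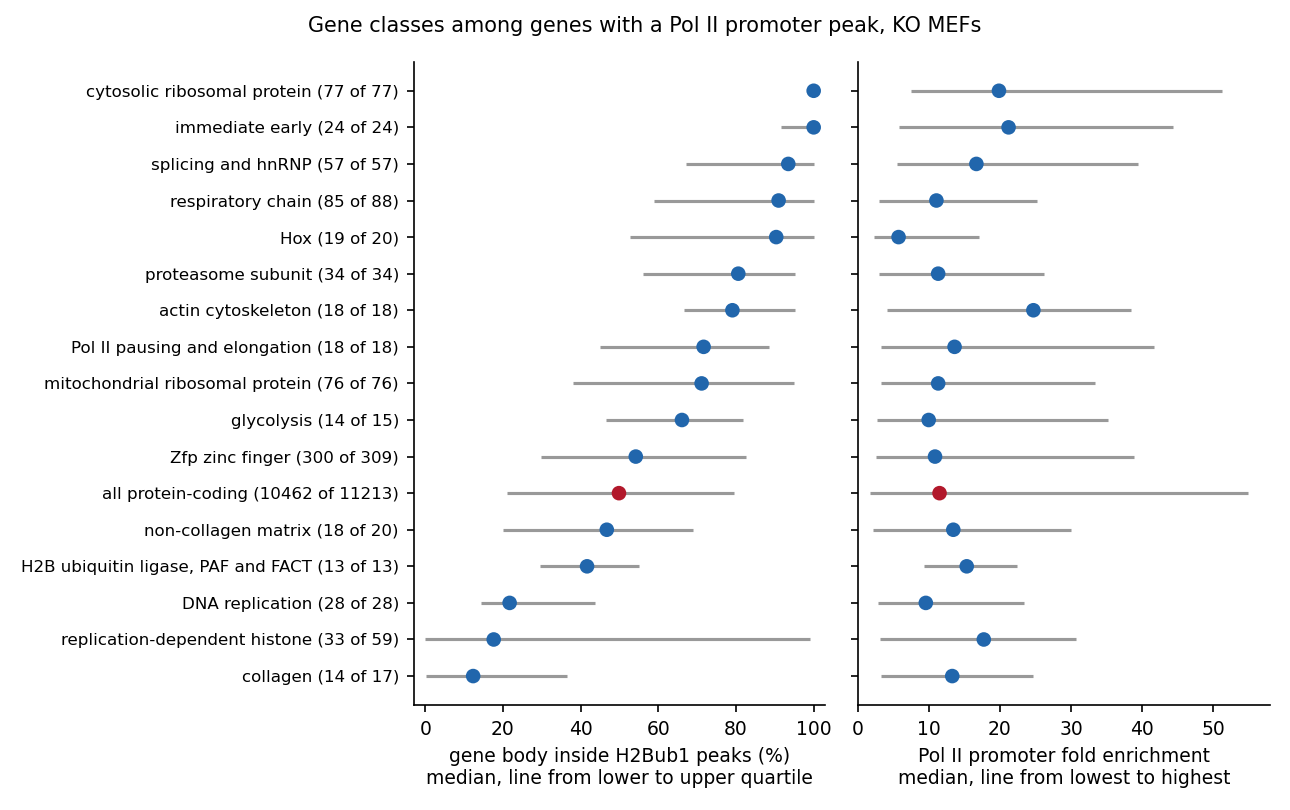
Gene classes in KO MEFs, with the median H2Bub1 share (percent, left, line from lower to upper quartile) and the median Pol II promoter fold (right, line from lowest to highest) of the members with promoter Pol II. Numbers in brackets give members with both marks of those with Pol II, and red marks all protein-coding genes; collagen (12.3%) and histone (17.6%) genes had low shares with a median Pol II fold above that of all genes.

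WT MEFs were compared to see how these relations stood with Atxn7l3 intact. There, H2Bub1 was present at 52.4% of genes with promoter Pol II, 40.9 points fewer than in KO MEFs (interval 39.9 to 41.9), and at 4.49% of genes without it. The median share was 0 in the 2 weakest quintiles and 13.9% in the strongest. The correlation between Pol II fold and H2Bub1 share was nevertheless 0.457, against 0.417 in KO MEFs. The difference of KO to WT MEFs was -0.0396 (-0.0605 to -0.0187), and -0.0327 (-0.0538 to -0.0117) with equal numbers of peaks. That between Pol II share and H2Bub1 share was 0.218 over all lengths, against 0.523 in KO MEFs, and 0.388 against 0.456 among genes of 20 to 50 kb. The summit of the strongest peak that reached the promoter window was inside H2Bub1 at 11.2% of genes in WT MEFs, 69.0 points fewer (68.0 to 69.9). At genes with promoter Pol II in both, the median of KO minus WT share was 16.2 points in the weakest quintile of KO Pol II fold, 33.7 in the second, and 38.9, 39.2 and 39.1 in the others, with 77.6% to 98.1% of genes higher in KO. With equal numbers of peaks in both pairs of lists the difference at genes with Pol II was 38.2 points. Fibroblast markers, with a lower Pol II fold in KO MEFs at 7 of 7, and mesothelial markers also differed between the 2 cultures, as given above, and their part in these differences was not tested.

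KO mESCs, labelled as lacking the same gene, had H2Bub1 at 97.8% of genes with promoter Pol II and at 43.9% of genes without it. At genes with Pol II the difference of KO MEFs to KO mESCs was -4.52 points (interval -5.10 to -3.93). This order was turned with equal numbers of peaks, where KO MEFs had 96.9% and KO mESCs 95.9%. At genes without Pol II the difference was -33.0 points (-33.9 to -32.0), and -18.8 with equal numbers of peaks. H2Bub1 share went with Pol II fold less in KO mESCs, where the median share was 39.5% in the weakest quintile and 50.9% in the strongest and the rank correlation was 0.0664. The difference in this correlation was 0.351 (0.323 to 0.379), and 0.218 with equal numbers of peaks. With the Pol II share in place of the fold the correlation was 0.554 in KO mESCs and 0.523 in KO MEFs. Both shares go with gene length, and among genes of 20 to 50 kb it was 0.284 and 0.456. In the strongest quintile KO MEFs were higher by 20.4 points (15.9 to 24.7). In the weakest quintile the difference was -24.4 points (-27.4 to -21.2), but with equal numbers of peaks the medians were 33.7% and 32.2%, a difference of 1.5 points (-2.75 to 5.05). The Pol II list of KO mESCs held 11963 peaks, fewer than that of KO MEFs, and its weakest quintile had a median fold of 3.32. Its strongest quintile had a median fold of 7.77, against 21.3 in KO MEFs. The fourth quintile of KO mESCs ended at a fold of 6.34 and the weakest of KO MEFs at 6.64. Quintiles of the same rank thus held unlike folds, and the effect of this on the comparison was not tested.

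**Figure D5:**
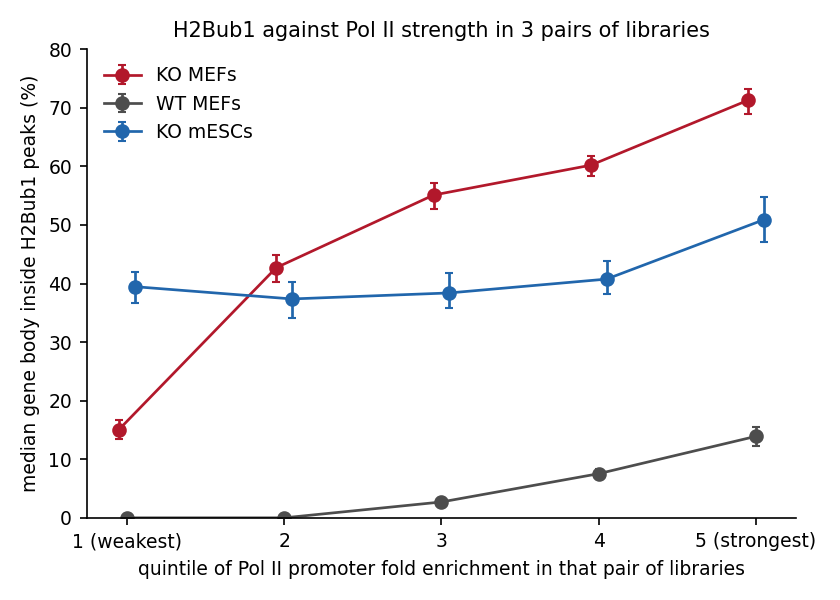
Median H2Bub1 share of the gene body (percent, vertical axis) by quintile of Pol II promoter fold (horizontal axis), ranked within each pair of libraries, for KO MEFs, WT MEFs and KO mESCs, with exact 95% intervals over genes as bars. The medians of KO MEFs go from 15.1% to 71.3%, those of WT MEFs from 0 to 13.9% and those of KO mESCs from 39.5% to 50.9%. Quintiles of the same rank differ in fold, with a median of 21.3 in the strongest of KO MEFs and 7.77 in that of KO mESCs.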

How the data were processed

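ChIP-seq libraries of KO MEFs, with WT MEFs and KO mESCs for comparison, were read from the deposited peak lists, 1 library per list. The authors sequenced single-end reads of 50 bp, aligned them to mm10 with Bowtie (1.0.0 per the submitters' processing notes) and called peaks with MACS2 (2.1.1.20160309), narrow for Pol II and broad for H2Bub1. Control and thresholds of the calls are not given in the sources used here. H2Bub1 was scaled by DESeq2 size factors over intergenic regions and Pol II by mapped reads, both by the authors, and how this entered the calls is not stated. The deposited fold is a linear ratio over local background (Pol II at the summit, H2Bub1 averaged over the peak). The deposited -log10 p and -log10 q values give the strength of each call, and the lowest -log10 q was 1.33 for Pol II and 1.01 for H2Bub1. The deposited score column restates the -log10 q and was not used, and the other deposited value is the summit offset from the peak start. Read depth is unknown. A deeper library gives more and wider peaks, so counts between libraries carry that limit.

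Positions were converted to 1-based and set against GENCODE M21 (GRCm38, the same build) on 21 chromosomes. A promoter was called with 1 bp of Pol II peak within 1000 bp of the TSS, and H2Bub1 with 1 bp in the body, from TSS to gene end. The H2Bub1 fold of a gene is the mean over its covered bases. Shares have exact Clopper-Pearson and medians exact binomial intervals. Intervals of differences combine the distances to both exact intervals. Spearman's rank correlation across genes is a description.

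The members, gene lists and tests were chosen with earlier results of these data known. Named were the targeted gene and the genes the study displayed, the top 5 by Pol II fold among all genes, with H2Bub1 over at least 50% of a body of at least 2 kb, and without H2Bub1 (also at 20 kb or more), the top 5 by H2Bub1 bases without any Pol II and at least 5000 bp from another gene, the top 5 by Pol II bases, the top gene of each length class, the top 3 of each list, and markers. Symbols of predicted genes were skipped, and some chosen items are not reported here. Genes picked otherwise are said to be.

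Promoter sequences came from RefSeq (GRCm38.p6), with 16539 of 21938 genes matched by symbol, and composition was computed for 21931 genes. Rdm1 had no entry. The functions were tested on simulated peaks, with all 21938 genes run. The peaks were placed at 400 genes of at least 10 kb that lay at least 5000 bp from another gene. Of these, 100% of 200 promoters and 100% of 400 H2Bub1 genes were recovered, and 0% of 200 genes without a simulated promoter peak were called. Short, close and overlapping genes were not simulated.

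Tried as alternatives were peaks at -log10 q 3 or more, a promoter from 100 bp before to 300 bp after the TSS, any annotated start, genes at least 5000 bp from another gene, a call at 10% of the body, a body from 1000 bp past the TSS, -log10 p as rank, autosomes, joined peaks and equal numbers of peaks. Scripts ran in Python 3.11.15 with pandas 2.3.3, scipy 1.17.1, numpy 2.4.6 and, for plots, matplotlib 3.10.9. Input and serine 2 phosphorylation libraries were not analysed here.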

Additional observations from a re-analysis of the deposited data

How the results depend on the processing

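No paired analysis was possible because the labels carry no replicate numbers and each group has 1 library. The share of genes with promoter Pol II that had H2Bub1 was 93.3%, and 86.9% at a -log10 q of at least 3, 94.3% in the narrow promoter window, 94.6% at genes 5000 bp or more from another, 83.9% with the call at 10% of the body, 92.8% with any annotated start and 92.0% with the body from 1000 bp past the TSS. In the same order the share without promoter Pol II was 7.93%, 12.8%, 6.22%, 7.56%, 5.16% and 11.7%. The median share of the strongest quintile was 63.8% at the stricter q and 68.8% with the shortened body. That of the weakest was 5.92% at the stricter q, 17.9% in the narrow window, 11.6% at distant genes and also with any start, 12.3% with the shortened body and 13.1% by -log10 p. The rank correlation was 0.399 in the narrow window, 0.512 at distant genes, 0.441 with any start and 0.445 by -log10 p. At 20 to 50 kb the median was 34.6% at the stricter q, 49.4% at distant genes and 40.8% with the shortened body, and over 200 kb it was 7.64% at the stricter q. Summits inside H2Bub1 were 78.0% at the stricter q, 81.1% in the narrow window and 77.5% at distant genes, and Pol II bases inside it 74.0%, and 83.3% at distant genes and 73.2% with the shortened body. With equal numbers of peaks KO minus WT MEFs was 38.2 points with and 4.92 without promoter Pol II, 54.1 in the strongest and 12.2 in the weakest quintile. KO MEFs minus KO mESCs became 1.04, -18.8, 26.6 and 1.5 points, with -0.959 for summits and 0.218 for the rank correlation, so the first and the weakest quintile changed sign. The causes were not tested. Autosomes alone changed little, and joining could change nothing, since neighbouring H2Bub1 peaks were at least 1193 bp apart. Among distant genes the class median was 40.1% for mitochondrial ribosomal and 21% for Hox genes. The other 61 of 63 class values stayed inside the exact interval of the main class median, which can be wide in small classes. Varied in this way were the ribosomal, histone, respiratory chain, splicing, immediate early, collagen, DNA replication and Hox classes, and no others. Of 493 values at named genes 12 moved, all at the stricter q. Only the stricter q and the shortened body could change the share at a single gene. Most of the 493 values were therefore fixed in advance.

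Precision is limited by 1 library per group, by unknown read depth and by shared promoters, and peak lists say nothing of signal below the calling threshold. Shares depend on peak width as called, so absolute levels of H2Bub1 are not measured.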
